A study of Mus musculus with 6 samples.

Results

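The Rab GTPases are the small GTP-binding proteins that mark the compartments of membrane traffic. Their genes were taken from the deposited table by symbol, as every row named Rab, a number and at most 1 lower-case letter, which leaves out effectors, exchange factors and antisense transcripts. That gave 59 of 27179 genes. RNA-seq was done on mouse embryonic stem cells (mESCs) grown on gelatin in serum and the cytokine LIF, which carried Tfe3-ERT2, a form of the transcription factor Tfe3 that moves into the nucleus when 4-hydroxytamoxifen (4OHT) is added. All 6 libraries came from cells with this construct: 3 had received 4OHT at 1 µg/mL for 48 h and 3 the ethanol vehicle (EtOH). The labels name neither the parent line, the clone nor the promoter of the construct, and no cells without the construct were part of the design, so 4OHT itself and the nuclear entry of Tfe3 cannot be told apart. Nothing in them tells whether replicates were separate cultures; p-values thus measure the spread among these 6 libraries, which may be technical.

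A Rab protein works as a switch. An exchange factor loads it with GTP on a membrane, where it recruits effectors such as tethers, motors and adaptors, and a GTPase-activating protein turns it off. A lipid tail added by Rab geranylgeranyl transferase anchors it, and the carrier GDI extracts the inactive form. Rab1 and Rab2 serve traffic between endoplasmic reticulum (ER) and Golgi, Rab5 early endosomes, Rab11 recycling endosomes, and Rab7 late endosomes and lysosomes. Tfe3 belongs to the MiT/TFE factors, which bind the E-box CACGTG, most readily in the longer form of the CLEAR element, TCACGTGA with a G before and a C after, which is found near the start of lysosomal genes.

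The promoters of the Rab members were searched for these letters. RefSeq promoters on GRCm38.p6, 250 bases before to 50 after a start, were at hand for 48 of the 59 members and 27025 genes in all. This decamer, which contains TCACGTG, TCACGTGA and CACGTG and reads the same on both strands, stood in the promoters of 3 members, Rab5a, Rab21 and Rab24. That was 6.25% of the members with a promoter, tested or not. The decamer was in 0.37% of all genes with a promoter and in 0.83% of the 9635 that also passed the expression filter. All 3 members were higher in 4OHT. Of the 80 filtered genes with the decamer, 26 (32.5%) were higher and 7 (8.75%) lower. All 12345 tested genes, with or without a tabulated promoter, gave 21.4% higher and 20.6% lower. The 3 promoters are shown because they are the ones that hold the full decamer, 5′ to 3′ on the strand of the gene, with each CACGTG and each full decamer in capitals.
Rab21 (chr10:115315542-115315841, minus strand): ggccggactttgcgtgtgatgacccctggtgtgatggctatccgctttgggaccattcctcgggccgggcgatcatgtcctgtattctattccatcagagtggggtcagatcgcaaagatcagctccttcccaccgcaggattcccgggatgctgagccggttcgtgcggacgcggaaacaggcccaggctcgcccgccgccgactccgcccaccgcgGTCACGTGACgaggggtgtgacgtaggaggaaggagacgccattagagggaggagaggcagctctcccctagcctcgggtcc
Rab24 (chr13:55321931-55322230, minus strand): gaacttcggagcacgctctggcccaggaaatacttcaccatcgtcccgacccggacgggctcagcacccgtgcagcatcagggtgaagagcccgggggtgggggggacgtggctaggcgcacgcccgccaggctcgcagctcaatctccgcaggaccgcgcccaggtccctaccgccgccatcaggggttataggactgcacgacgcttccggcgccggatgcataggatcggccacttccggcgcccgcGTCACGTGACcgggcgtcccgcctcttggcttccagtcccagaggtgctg
Rab5a (chr17:53478984-53479283, plus strand): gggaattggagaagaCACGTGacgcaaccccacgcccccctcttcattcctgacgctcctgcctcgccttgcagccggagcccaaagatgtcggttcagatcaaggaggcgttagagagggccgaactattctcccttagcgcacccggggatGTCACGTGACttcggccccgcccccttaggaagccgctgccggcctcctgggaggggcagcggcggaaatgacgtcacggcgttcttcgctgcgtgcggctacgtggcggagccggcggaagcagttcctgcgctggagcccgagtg

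Counted from the first base of the transcript as 1, the decamer began at base −32 in Rab21, at base 1 in Rab24 and at base −97 in Rab5a, whose promoter holds another CACGTG at base −235. TCACGTGA was in the same 3 promoters (6.25%, beside 1.12% of all and 2.29% of filtered genes) and TCACGTG, on either strand, in 4 (8.33%, beside 4.29% and 7.27%), with Rab23. The hexamer CACGTG was in the promoters of 6 members (12.5%, beside 8.09% of all genes and 12.2% of filtered genes). Of the filtered genes with it 25.8% were higher and 22.9% lower. The other 3 members were Rab20, too low to be tested, and Rab23 and Rab27a, which were not called. Their hexamers, with up to 12 bases on either side, are shown because the flanks differ from the decamer; in Rab23 and Rab27a the hexamer is at 1 of 2 tabulated starts.
Rab20: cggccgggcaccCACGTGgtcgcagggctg
Rab23: cttcagtgctacCACGTGagtctcaggtgg
Rab27a: cttgCACGTGctcctccgtctg

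A match describes these letters only, and a window without one says nothing about binding elsewhere. The other higher members with a promoter, Rab1a, Rab7 and Rab11a among them, held no CACGTG in this window.

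Levels are given in CPM, counts per 1000000 of the counts of genes passing the filter, scaled by TMM factors. A minimum on counts left 12345 genes, and edgeR's quasi-likelihood test with Benjamini-Hochberg adjustment over all of them called a gene at an adjusted p under 0.05. Total counts per library ran from 4092877 to 6427880, so that 3 counts stood for 0.469 to 0.738 CPM, counting error only. The Tfe3 row, in which the sources do not say whether reads of the fusion were counted, went from 1038 ± 35.1 to 832 ± 4.34 CPM (SD, n = 3 each), a fall (adjusted p = 9.8e-19, edgeR). The mESC markers Pou5f1, Nanog, Sox2, Zfp42, Esrrb, Klf4, Tfcp2l1 and Dppa5a were all detected, summing to between 4253 and 4328 CPM in EtOH and 5450 and 5508 CPM in 4OHT. They did not move as one: 5 were higher, 1 lower and 2 not called. The lower one was Pou5f1 (791 to 697 CPM, adjusted p = 7.8e-07, edgeR). Most of the summed rise came from Tfcp2l1 (669 to 1510 CPM) and Esrrb (566 to 882 CPM). Of 8 trophectoderm markers 5 were tested and all 5 were higher, with summed levels of 442 to 465 CPM in EtOH and 947 to 968 CPM in 4OHT, mostly Krt8 and Krt18. Hand1 rose from 1.54 to 8.96 CPM and Gata3 from 3.48 to 7.93 CPM (adjusted p = 8.5e-14 and 4.5e-05, edgeR). The defining Cdx2 had 14, 12 and 5 counts in the EtOH libraries, 6, 8 and 12 in those with 4OHT, and Elf5 had 1 count in all. Summed markers of fibroblasts were low (14.9 to 23.1 CPM in EtOH, 19.1 to 25.3 in 4OHT), with 3 of 6 tested and none called. Those of primitive endoderm were low too (15 to 23.0 and 23.2 to 28.1 CPM), with 3 of 7 tested and none called. The rest of both lists were too low to test, so a change in them was not assessed. Of 4 tested neuroectoderm markers 2 were lower (158.5 to 173 CPM summed in EtOH, 92.9 to 103 in 4OHT), and of 2 tested mesendoderm markers 1 was higher and 1 lower (10.6 to 11.5 and 13.4 to 16.4 CPM). The lower one, T, passed the filter only through its EtOH libraries (22, 25 and 16 counts, against 0, 5 and 4 in 4OHT). The part of all these markers in the Rab results was not tested. In bulk RNA fewer cells of a type and less RNA per cell cannot be told apart.

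Most of the called Rab genes were higher in 4OHT, while the uncalled ones leaned neither way. Of the 59 members 46 passed the filter, and of these 14 were higher, 2 lower and 30 not called. Among the 30 uncalled members the log2 fold change was positive in 14 and negative in 16, and among all 46 it was positive in 28 and negative in 18. Over all tested genes 21.4% were higher and 20.6% lower, against 30.4% and 4.35% of the tested Rab genes. Both directions together gave 34.8% of the Rab genes and 42% of all genes. Among the 14 higher members folds ran from 1.15 to 1.82, and only Rab43 and Rab29 reached 1.5-fold. Rab25 was lower by 2.19-fold and Rab34 by 1.30-fold. The median log2 fold change was 0.075 over the 46 members and −0.0024 over all tested genes, and the median of its absolute size was 0.19 and 0.21. The 3 libraries of one group lay wholly above or below those of the other in 21 of 46 members (45.7%), close to the 48.8% of all genes. Summed over the 59 members, the level was 2312, 2319 and 2302 CPM in EtOH and 2530.4, 2520 and 2539 CPM in 4OHT, so the family total was 1.09-fold higher and the groups did not overlap.

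**Figure D1:**
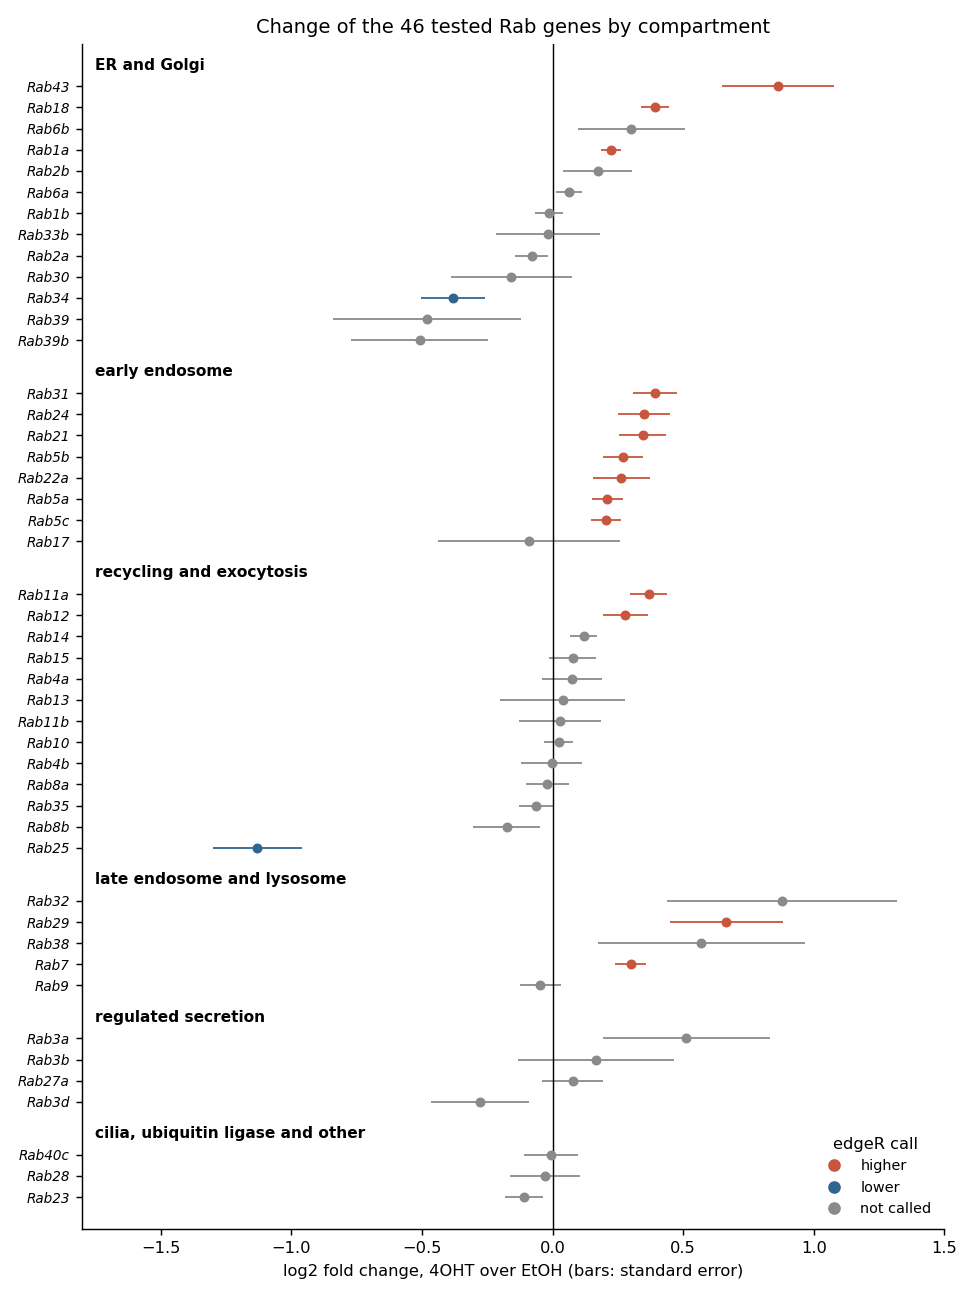
Log2 fold change of 4OHT over EtOH for each of the 46 tested Rab genes, ordered within compartments, with the standard error as a bar and the edgeR call as the colour. The 7 called early endosome genes sit between 0.20 and 0.39, and Rab25 stands alone at −1.13.

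The list for early endosomes, where material from the plasma membrane is first sorted, held 9 members, of which 8 were tested, 7 were higher and none lower. Over all tested genes 21.4% were higher. The lists were drawn up with earlier results known and their borders are a choice: Rab24, counted here, is also known from autophagy, whereas Rab4a and Rab4b, which act from early endosomes and were not called, are counted with recycling. The exception, Rab17 (11 to 17 counts a library), was at 2.88 and 2.70 CPM, with a log2 fold change of −0.09 (SE 0.35), or 0.0034 without EtOH replicate 1. Together the 9 genes summed to between 403 and 414 CPM in EtOH and between 482 and 495 CPM in 4OHT.

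Rab31, which acts between the trans-Golgi network and endosomes, was at 48.3, 40.5 and 48.0 CPM in EtOH and at 56.0, 62.6 and 60.4 CPM in 4OHT. Every 4OHT library lay above every EtOH library, and the gene was 1.31-fold higher (log2 fold change 0.39, SE 0.08, adjusted p = 2.2e-05, edgeR). Rab21, known for the uptake and return of integrins, was at 40.9, 38.7 and 36.4 CPM in EtOH and at 48.6, 48.2 and 50.8 CPM in 4OHT. Its groups did not overlap either, and it was 1.27-fold higher (log2 fold change 0.35, SE 0.09, adjusted p = 0.00060, edgeR).

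Rab24, an atypical Rab known for its part in autophagy, was at 29.8, 31.0 and 32.2 CPM in EtOH and at 35.8, 43.3 and 38.7 CPM in 4OHT. The groups were apart and the gene was 1.27-fold higher (log2 fold change 0.35, SE 0.10, adjusted p = 0.0022, edgeR). Of its exon bases 62.4% are shared with Prelid1 on the opposite strand in GENCODE vM21, and the strand setting of the counting is not stated. Prelid1 itself, at 192 ± 4.43 CPM in EtOH and 202 ± 3.57 CPM in 4OHT (SD, n = 3 each), missed the threshold at a log2 fold change of 0.07 (adjusted p = 0.24, edgeR).

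The 3 Rab5 genes encode closely related proteins that drive the fusion of early endosomes, and all were higher by a similar amount. Rab5a was at 98.1, 95.6 and 92.3 CPM in EtOH and at 116, 104 and 112 CPM in 4OHT. Rab5b was at 53.8, 61.5 and 54.4 CPM in EtOH and at 70.1, 62.6 and 71.4 CPM in 4OHT. Rab5c was at 109, 116 and 110.2 CPM in EtOH and at 122, 139 and 124 CPM in 4OHT. None of the 3 had overlapping groups, and the folds were 1.16, 1.20 and 1.15 (adjusted p = 0.0022, edgeR, 0.0021 and 0.0013). Rab22a, the closest relative of Rab31, was at 26.4 to 26.9 CPM in EtOH and 30.5 to 34.5 CPM in 4OHT, 1.20-fold higher (adjusted p = 0.041, edgeR), a call lost under several settings: DESeq2 gave an adjusted p of 0.17, the replicate block 0.052, no filter 0.054 and upper quartile factors 0.079. It was also lost without EtOH replicate 1 (0.11), EtOH replicate 2 (0.073), EtOH replicate 3 (0.075) or 4OHT replicate 3 (0.23). The remaining member, Rab20, was too low to test, with 4, 3 and 2 counts in the EtOH libraries and 0, 0 and 3 in those with 4OHT.

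**Figure D2:**
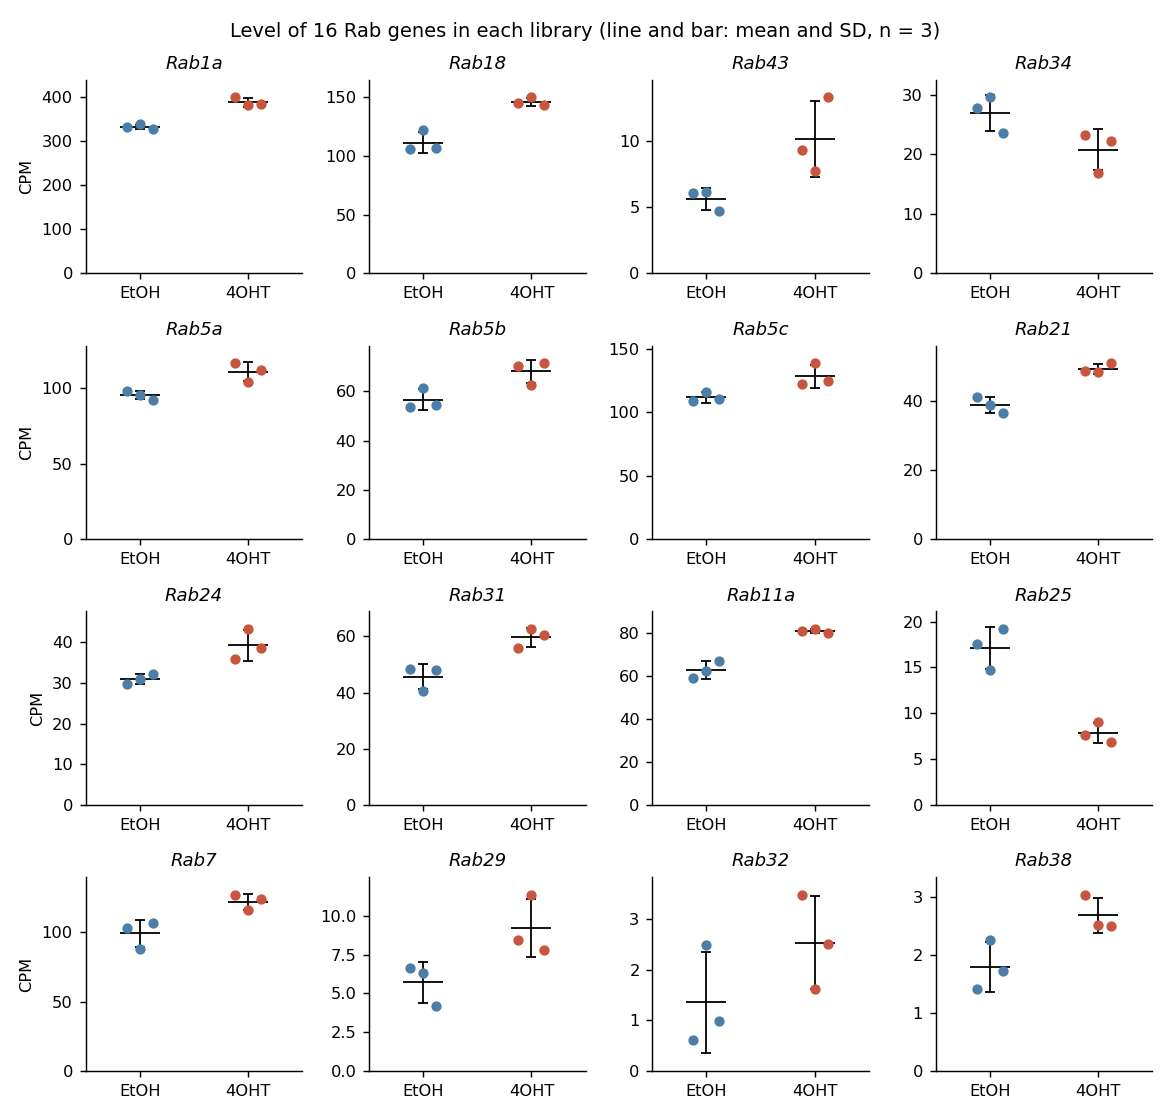
CPM of 16 Rab genes in each of the 3 EtOH and 3 4OHT libraries, 1 point per library, with mean and SD; every vertical axis starts at 0. Rab5a, Rab5b and Rab5c shift by a like amount, Rab25 drops from between 14.7 and 19.2 to between 6.87 and 9.02 CPM, and the EtOH and 4OHT points of Rab32 overlap.

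The recycling group, which returns cargo to the cell surface and delivers vesicles for exocytosis, held the largest fall. Of its 13 members all were tested, 2 were higher (15.4%), 1 lower (7.69%) and 10 not called. All tested genes gave 21.4% higher and 20.6% lower. Rab25, a member of the Rab11 subfamily known from epithelia (chromosome 3, 88542029 to 88548279 on GRCm38), was at 17.5, 14.7 and 19.2 CPM in EtOH and at 7.60, 9.02 and 6.87 CPM in 4OHT. The lowest EtOH library was well above the highest 4OHT library. Rab25 was 2.19-fold lower (log2 fold change −1.13, SE 0.17, adjusted p = 2.7e-09, edgeR), and between −1.25 and −1.03 on the log2 scale when any 1 library was left out. Its relative Rab11a, the general marker of recycling endosomes, went the other way. It was at 59.0, 62.2 and 66.9 CPM in EtOH and at 80.7, 81.7 and 79.7 CPM in 4OHT. That is 1.29-fold higher with no overlap (log2 fold change 0.37, SE 0.07, adjusted p = 3.7e-06, edgeR). The third relative, Rab11b, stood at 14.2 and 14.6 CPM and was not called (0.03 on the log2 scale, SE 0.16), with a sign that turned under upper quartile factors (−0.0053) and without EtOH replicate 3 (−0.14) or 4OHT replicate 2 (−0.0029).

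Scaled by gene length, Rab11a supplied 59.3% ± 2.61 of the transcript level of these 3 genes in EtOH and 78.0% ± 1.71 in 4OHT (SD, n = 3 each). The share of Rab25 went from 35.5% ± 2.88 to 16.6% ± 1.73 and that of Rab11b was 5.22% and 5.44%. For Rab11a and Rab25 the libraries of the groups did not overlap in these shares, which follows from opposite calls. Rab12, which sends the transferrin receptor to degradation, was 1.21-fold higher (40.9 to 45.8 CPM in EtOH, 51.9 to 54.1 in 4OHT, adjusted p = 0.0044, edgeR).

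Other recycling and exocytic members had small log2 fold changes. Rab14 had groups that did not overlap (125 to 131 CPM in EtOH, 136 to 141 in 4OHT), a log2 fold change of 0.12 (adjusted p = 0.058, edgeR), called without 4OHT replicate 2 (0.046) and after thinning all libraries to the smallest total (0.036). Rab8a and Rab8b, which act in exocytosis and cilium growth, had log2 fold changes of −0.02 (SE 0.08; 0.0153 without EtOH replicate 3 and 0.03 without 4OHT replicate 2) and −0.18 (SE 0.13). Rab10, a relative of Rab8 in exocytosis, was at 0.02 (SE 0.06; −0.0103 under upper quartile factors), and Rab35, of fast recycling, at −0.06 (SE 0.06). Rab4a and Rab4b, of fast recycling from early endosomes, were at 0.07 (SE 0.11) and −0.0026 (SE 0.12). Rab15 and Rab13 had log2 fold changes of 0.08 and 0.04. A change as small as that of Rab5a may not have been detectable where the SE was above 0.10, as in Rab8b, Rab4a, Rab4b and Rab13 (SE 0.24).

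**Figure D3:**
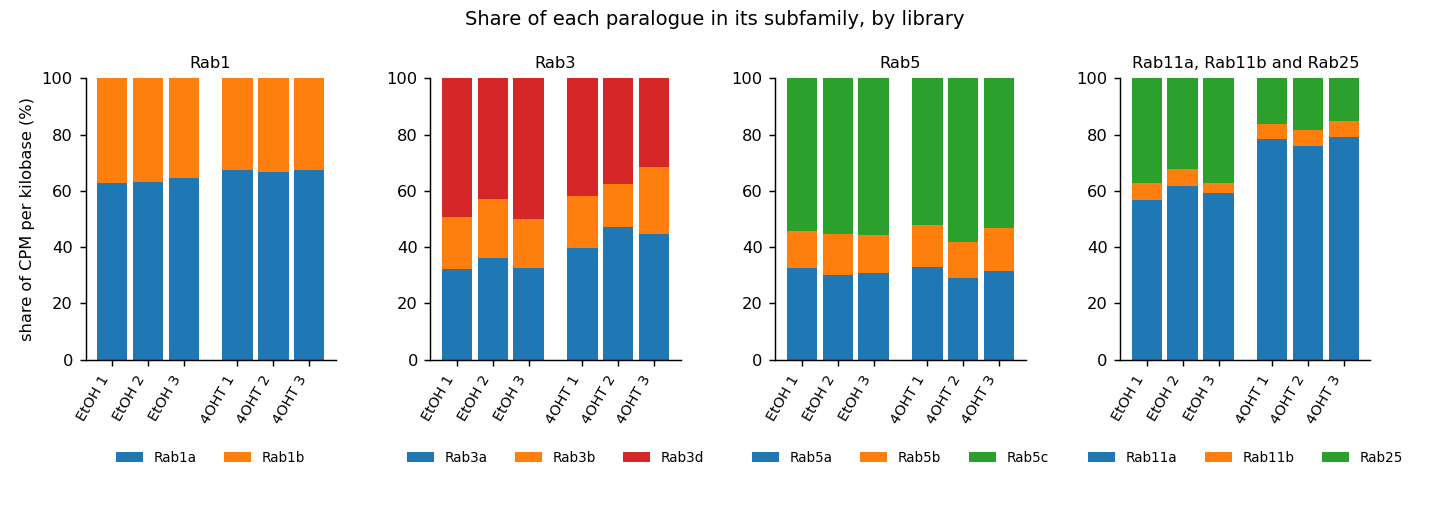
Stacked bars of the share (%) that each paralogue takes of the length-scaled CPM of its subfamily, 1 bar per library, for Rab1, Rab3, Rab5 and the group of Rab11a, Rab11b and Rab25. Rab25 takes between 32.2% and 37.3% in EtOH and between 15.1% and 18.5% in 4OHT, while the Rab5 shares of the EtOH and 4OHT libraries overlap.

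Late endosomes and lysosomes are the compartments for which MiT/TFE factors are best known. Of 7 members on this list 5 were tested, 2 were higher (40%) and none lower, beside 21.4% and 20.6% of all tested genes. Rab7, which directs late endosomes and autophagosomes to fuse with lysosomes, was at 103, 88.2 and 107 CPM in EtOH and at 127, 116 and 124 CPM in 4OHT. The groups did not overlap and the gene was 1.23-fold higher (log2 fold change 0.30, SE 0.06, adjusted p = 5.5e-06, edgeR). Rab9, which returns mannose phosphate receptors from late endosomes to the Golgi, was at 58.8, 61.9 and 60.8 CPM in EtOH and at 62.1, 56.4 and 57.6 CPM in 4OHT. These ranges overlapped, with a log2 fold change of −0.05 (SE 0.08).

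Rab29, Rab32 and Rab38 form a subfamily of lysosomes and lysosome-related organelles such as melanosomes, and all 3 were scarce. Rab29, which can recruit the kinase LRRK2, was at 6.65, 6.33 and 4.18 CPM in EtOH and at 8.46, 11.4 and 7.81 CPM in 4OHT. It was 1.58-fold higher without overlap (log2 fold change 0.66, SE 0.22, adjusted p = 0.0077, edgeR). The call was lost in DESeq2 (adjusted p = 0.069), without EtOH replicate 3 (0.087) and without 4OHT replicate 2 (0.10). Rab32 was at 0.604, 2.49 and 0.984 CPM in EtOH and at 3.47, 1.62 and 2.50 CPM in 4OHT. EtOH replicate 2 and 4OHT replicate 2 lay inside the range of the other group, and Rab32 was not called (log2 fold change 0.88 with SE 0.44, adjusted p = 0.098, edgeR). Without EtOH replicate 2 its log2 fold change was 1.65 (adjusted p = 0.014, edgeR) and without 4OHT replicate 2 it was 1.11 (0.042). Rab38 was at 1.41, 2.26 and 1.72 CPM in EtOH and at 3.04, 2.52 and 2.50 CPM in 4OHT, all 4OHT libraries above all EtOH libraries, but was not called (log2 fold change 0.57, SE 0.40, adjusted p = 0.25, edgeR). Rab7b had at most 4 counts in a library and Rab9b 2 counts in EtOH replicate 2 and none elsewhere.

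Among the Rab genes of the ER and Golgi most were not called. Of 16 members 13 were tested, 3 were higher (23.1%), 1 lower (7.69%) and 9 not called. The shares over all tested genes were 21.4% higher and 20.6% lower. Rab18, a Rab of the ER and of lipid droplets, had the smallest p of the family. It was at 106, 122 and 107 CPM in EtOH and at 145, 150.0 and 144 CPM in 4OHT, 1.31-fold higher with no overlap (log2 fold change 0.39, SE 0.05, adjusted p = 9.2e-11, edgeR). Rab1a, which controls the first step from ER to Golgi, was at 331, 338 and 328 CPM in EtOH and at 399.6, 381 and 383 CPM in 4OHT. Its groups were also apart, 1.17-fold higher (log2 fold change 0.22, SE 0.04, adjusted p = 2.8e-07, edgeR). Its paralogue Rab1b was at 135, 135 and 125 CPM in EtOH and at 133, 132 and 128 CPM in 4OHT, overlapping, with a log2 fold change of −0.01 (SE 0.05; 0.0113 after thinning). The share of Rab1a in the length-scaled level of the pair was 63.5% ± 0.84 in EtOH and 67.2% ± 0.45 in 4OHT (SD, n = 3 each) and did not overlap.

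Rab43, a Golgi Rab, was at 6.04, 6.10 and 4.67 CPM in EtOH and at 9.33, 7.75 and 13.3 CPM in 4OHT. The groups did not overlap and it was 1.82-fold higher (log2 fold change 0.86, SE 0.21, adjusted p = 0.00031, edgeR), but without the highest library, 4OHT replicate 3, the log2 fold change was 0.59 and the adjusted p 0.0504 by edgeR. Of its exon bases 75.4% are shared with the gene model Gm45140 on the same strand. Rab34, which acts at the Golgi, in lysosome positioning and in cilium formation, was at 27.8, 29.6 and 23.6 CPM in EtOH and at 23.2, 17.0 and 22.3 CPM in 4OHT. The highest 4OHT library came close to the lowest EtOH library. Rab34 was 1.30-fold lower (log2 fold change −0.38, SE 0.12, adjusted p = 0.0064, edgeR), a call lost in DESeq2 (adjusted p = 0.065), without EtOH replicate 2 (0.058) and without 4OHT replicate 2 (0.11). The family count of lower members was then 1 instead of 2, namely Rab25, in DESeq2 and without 4OHT replicate 2.

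Rab2a, of traffic between Golgi and ER, had a log2 fold change of −0.08 (adjusted p = 0.32, edgeR), or −0.17 and 0.043 without EtOH replicate 2. Rab2b, at 18.7 to 19.2 CPM in EtOH and 20.3 to 22.4 in 4OHT, was not called (0.17), and 64% of its exon bases lie opposite other gene models, Tox4 among them. The Golgi transport gene Rab6a was at 0.06 and its mostly neuronal paralogue Rab6b at 0.30 (SE 0.20). Rab33b and Rab30 of the Golgi were at −0.02 (0.07 without EtOH replicate 1) and −0.16. Rab39 and Rab39b had log2 fold changes of −0.48 and −0.51, with adjusted p of 0.29 and 0.11 by edgeR. Rab39b was at −0.30 without EtOH replicate 2, and Rab39 at −1.10 (adjusted p = 0.045, edgeR) without 4OHT replicate 3. Rab19, Rab33a and Rab36 had at most 7 counts in a library.

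Rab genes of regulated secretion, a task of neurons, glands and blood cells, were mostly scarce in these cells, Rab27a excepted, and none was called. Of 8 members 4 were tested, where 42% of all tested genes were called. Rab3a, of synaptic vesicles, was at 2.62, 2.71 and 3.20 CPM in EtOH and at 3.26, 4.51 and 4.22 CPM in 4OHT, all 4OHT libraries above all EtOH libraries, with a log2 fold change of 0.51 (SE 0.32, adjusted p = 0.20, edgeR). Rab3d was at 10.8 and 8.88 CPM (log2 fold change −0.28, SE 0.19, and −0.13 without EtOH replicate 3), Rab3b at 3.66 and 4.02 CPM (0.17, or −0.08 without 4OHT replicate 3) and Rab27a at 24.8 and 26.1 CPM (0.08). Rab26, Rab27b and Rab37 had at most 7 counts in a library, and Rab3c had none in any. None of the remaining list was called either: Rab23, which restrains Hedgehog signalling, had a log2 fold change of −0.11 with groups that did not overlap (69.1 to 73.9 CPM in EtOH, 64.4 to 67.8 in 4OHT, adjusted p = 0.22, edgeR). Rab28, of cilia, was at −0.03 (0.05 without 4OHT replicate 2) and Rab40c, part of a ubiquitin ligase, at −0.0067 (0.0148 after thinning). Rab40b, Rab42 and Rab44 had at most 4 counts in a library.

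**Figure D4:**
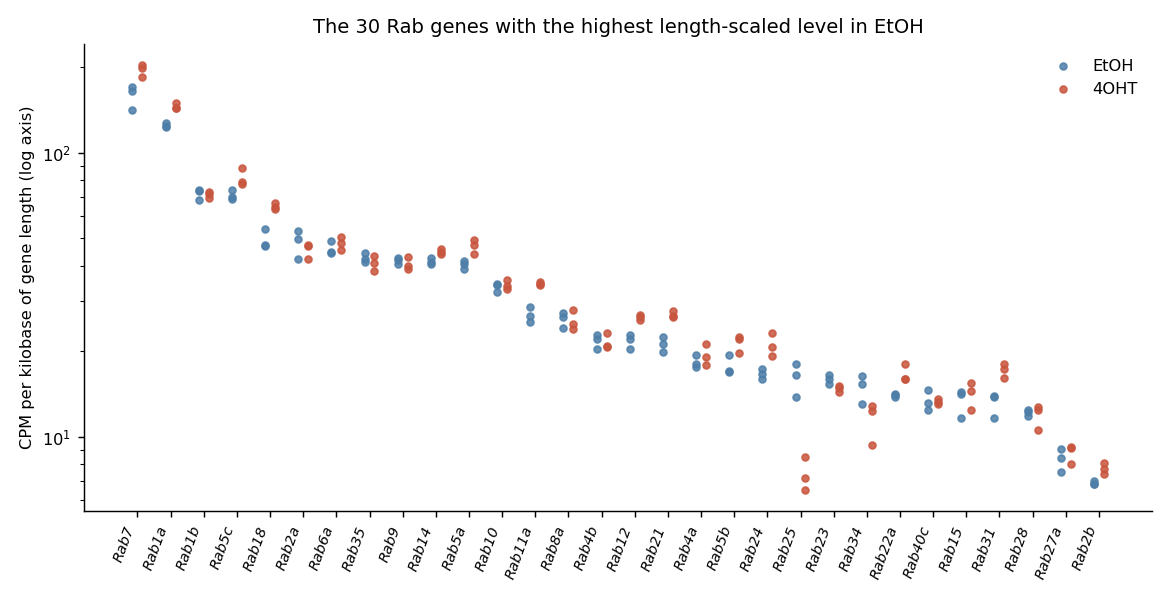
CPM per kilobase of the gene length in the deposited table (log axis) for the 30 Rab genes with the highest EtOH level, 1 point per library, ordered by the EtOH mean. Rab7 and Rab1a lead in both groups, and the EtOH and 4OHT points of Rab25 are the ones farthest apart.

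Compared between genes per kilobase of length, Rab7 and Rab1a were the most abundant Rab transcripts. In EtOH the order was Rab7 (159 CPM per kilobase), Rab1a (125), Rab1b (71.8), Rab5c (71.0) and Rab18 (49.4). In 4OHT it was Rab7 (196), Rab1a (146), Rab5c (81.7), Rab1b (71.3) and Rab18 (64.8). Neighbours in this order often overlapped: in EtOH Rab1b spanned 68.0 to 73.8 and Rab5c 69.0 to 73.9 CPM per kilobase. The first place of Rab7 rests on a table length of 624 bases, whereas GENCODE vM21 exons of the gene cover 2610 bases. On the GENCODE length it stood at 38.0 CPM per kilobase in EtOH, sixth after Rab1a (87.5), Rab1b (58.0), Rab5c (50.9), Rab2a (46.6) and Rab6a (41.1). Rab18 moved to place 12 on that length. The annotation behind the counts is not stated, so the GENCODE length may include bases in which no reads were counted. The fold changes do not depend on length.

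The uncertainty of the estimates was larger in scarce members. The 29 members with a mean of at least 20 CPM over all libraries had SEs of the log2 fold change between 0.04 and 0.13, and 12 of them were higher and 1 lower. In the 17 tested members under 20 CPM the SEs were between 0.13 and 0.44, and Rab29 and Rab43 were higher and Rab25 lower. The median log2 fold change was 0.076 in the first group and 0.028 in the second. Rab32, Rab38 and Rab3a, which were not called, had estimates between 0.51 and 0.88 with SEs between 0.32 and 0.44. The 4 tested members Rab2b, Rab4b, Rab24 and Rab43 share at least 20% of their exon bases with another gene model, and without them 12 members were higher and 2 lower.

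The proteins that load, unload, anchor and read Rabs were followed as 5 lists. Exchange factors, which switch Rabs on, were called higher more often than lower: 17 of 52 tested were higher (32.7%) and 3 lower (5.77%), beside 21.4% and 20.6% of all genes, with a median log2 fold change of 0.12. Both directions together gave 38.5% of this list and 42% of all genes. Subunits of complexes, such as the Trappc genes, are counted singly in it. Without 4OHT replicate 2 the lower count was 5. Rin3, an exchange factor for Rab5 and Rab31, had the largest fold of the 5 lists, from 4.57 ± 0.807 to 16.5 ± 1.12 CPM (SD, n = 3 each), 3.56-fold higher (adjusted p = 2.0e-16, edgeR). Dennd1b, for Rab35, was 1.79-fold higher (adjusted p = 1.3e-20, edgeR). Smcr8, counted in this list and a partner of C9orf72 on lysosomes, was 1.62-fold higher (adjusted p = 5.5e-20, edgeR). These data do not show which way Smcr8 acts on Rabs. C9orf72 itself was not called (21.2 CPM in EtOH, 19.3 in 4OHT, adjusted p = 0.49, edgeR). The lower members were Ankrd27, which acts on Rab21 and also binds Rab32 and Rab38 (1.30-fold lower, adjusted p = 6.7e-08, edgeR), Sbf2 (1.21-fold lower) and Dennd6a (1.15-fold lower, adjusted p = 0.0084, edgeR, but 0.060 without EtOH replicate 1 and 0.056 in DESeq2).

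Of 38 tested genes listed as GTPase-activating proteins, the class that switches Rabs off, 10 were higher (26.3%) and 2 lower (5.26%). Their median log2 fold change was 0.07. These data do not show which of them act on a Rab. All tested genes gave 21.4% higher and 20.6% lower. Both directions together gave 31.6% of this list and 42% of all genes. Tbc1d2, also called Armus and active on Rab7, was at 18.7 ± 0.555 and 42.5 ± 1.02 CPM (SD, n = 3 each), 2.27-fold higher (adjusted p = 1.2e-20, edgeR). Tbc1d13 was 1.55-fold higher (adjusted p = 3.2e-34, edgeR), Tbc1d10b, which acts on Rab27 and Rab35, 1.39-fold and Tbc1d24, a synaptic and endosomal protein, 1.69-fold. Tbc1d16, which acts on Rab4a, was 2.09-fold lower (59.8 ± 5.11 to 28.6 ± 0.420 CPM, SD, n = 3 each, adjusted p = 6.9e-24, edgeR). Tbc1d4, which holds back glucose transporter vesicles, was 1.92-fold lower (adjusted p = 0.0089, edgeR), a call lost without 4OHT replicate 2 (0.12) and in DESeq2 (0.070), so that 1 lower member was left in each. Upper quartile factors gave 5 lower members.

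Effectors, which bind active Rabs, were higher in 17 of 53 tested (32.1%) and lower in 1 (1.89%), with a median log2 fold change of 0.15. Beside them stand 21.4% higher and 20.6% lower of all tested genes. Both directions together gave 34% of the effectors and 42% of all genes. Rab11fip5, an effector of Rab11, was at 16.9 ± 0.289 and 52.6 ± 0.760 CPM (SD, n = 3 each), 3.11-fold higher (adjusted p = 1.1e-35, edgeR). Plin3, a lipid droplet protein also described as a Rab9 effector, was 2.19-fold higher (adjusted p = 1.5e-61, edgeR). Myo5a, the motor that carries Rab27a and Rab11 vesicles on actin, was 1.66-fold higher (adjusted p = 1.2e-30, edgeR), and the autophagy receptor and Rab8 effector Optn 2.62-fold. The lower member was Kif20a, a kinesin first found through Rab6 and also needed in cell division (1.16-fold lower, adjusted p = 1.1e-05, edgeR). Without 4OHT replicate 3 there were 2 lower effectors.

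The lists for membrane attachment and for Rab relatives were short, and 21.4% of all tested genes were higher and 20.6% lower. Of 9 tested genes of prenylation and recycling, 2 were higher (22.2%) and 1 lower (11.1%). Chm, the escort protein that presents new Rabs for prenylation, was 1.26-fold higher (34.6 ± 0.646 to 43.7 ± 3.27 CPM, SD, n = 3 each, adjusted p = 0.0016, edgeR), and the Rab acceptor Rabac1 1.26-fold (adjusted p = 0.0094, edgeR, but 0.12 without EtOH replicate 1 and 0.077 without 4OHT replicate 1, which left 1 higher gene each). Gdi2, the more abundant of the GDI genes, was 1.16-fold lower (619 ± 20.1 to 533 ± 3.72 CPM, SD, n = 3 each, adjusted p = 2.4e-08, edgeR). Without EtOH replicate 3 there were 2 lower genes on this list. Of 6 tested Rab-like GTPases outside the naming pattern none was higher and 2 were lower: Rabl6 (1.18-fold lower, adjusted p = 0.0012, edgeR) and Rasef, an EF-hand Rab (2.01-fold lower, adjusted p = 0.015, edgeR, but 0.051 without EtOH replicate 2 and 0.089 without 4OHT replicate 2, which left 1 each).

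**Figure D5:**
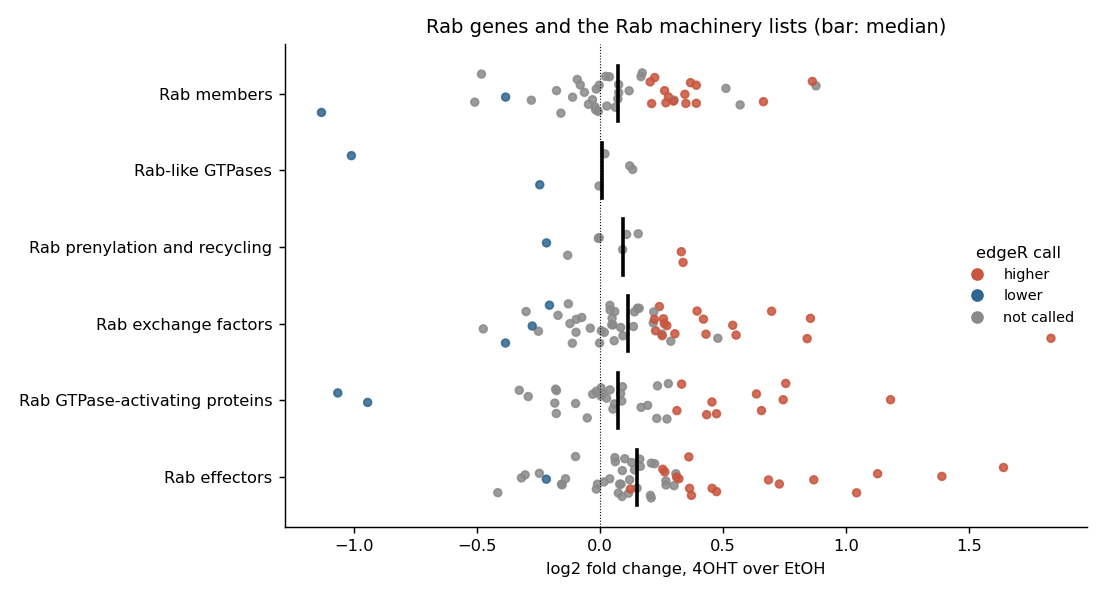
Log2 fold change of 4OHT over EtOH for every tested gene of the Rab family and of the 5 lists of its machinery, coloured by the edgeR call, with the median as a bar. Points spread farthest to the right among exchange factors (Rin3 at 1.83) and effectors (Rab11fip5 at 1.64), while no Rab gene passes 0.88.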

How the data were processed

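Raw counts per gene and library were deposited by the authors together with gene lengths (bases); libraries came from a stranded mRNA kit per the labels' protocols. The submitters' processing notes name fastp, STAR, featureCounts and the mm10 build; no version, annotation, strand setting or rule for multiply mapped reads is given in the sources used here. Genes without a symbol (1314) took 0.411% to 0.478% of a library.

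Genes were kept by filterByExpr (minimum count 10, total 15), scaled by TMM and tested with edgeR 4.0.16 (robust quasi-likelihood, two-sided) in R 4.3.3. For the SE, the size of the log2 fold change was divided by √F. Levels use library sizes after the filter. Steps were tested on simulated data in which far fewer genes changed than were called here. A shift as broad as the observed one was not simulated. Every replicate pair differed by more than counting error (chi-square over its degrees of freedom 1.40 to 2.99).

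Members and lists were chosen with earlier results of these data known. Named with values in every library were called members of at least 1.25-fold, the 5 highest per kilobase and the late endosome list, and Rab5a, Rab5b and Rab3a after their values were seen; from each machinery list up to 4 called genes per direction, of which 1 is not reported here. List names were matched by symbol, then by RefSeq synonym. Overlap used GENCODE vM21. Alternatives were DESeq2 1.42.0 (size factors and test), upper quartile factors, voom from limma 3.58.1, other filters and thresholds, the replicate block, thinning and leaving out each library; leaving out members that share exons was added after seeing the data. Figures used matplotlib 3.10.9 in Python 3.11.15.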

Additional observations from a re-analysis of the deposited data

How the results depend on the processing

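Of the 16 called Rab genes 12 kept call and direction in all 14 alternatives run for each gene, 4 (Rab22a, Rab29, Rab34 and Rab43) lost the call in at least 1, and none reversed. Leaving out 1 library gave between 12 and 15 higher and between 1 and 3 lower Rab genes, and for all genes between 2306 and 2544 higher and between 2129 and 2407 lower. Among the lists, the same runs gave between 1 and 3 lower GTPase-activating proteins, 1 and 2 lower effectors, 3 and 5 lower exchange factors, 1 and 3 higher and 1 and 2 lower genes of prenylation and recycling, and 1 and 2 lower Rab-like GTPases. DESeq2 left 1 lower Rab gene, 1 lower GTPase-activating protein, 1 higher gene of prenylation and 1 lower Rab-like GTPase. Upper quartile factors gave 5 lower GTPase-activating proteins, 2 lower effectors and 2 lower genes of prenylation. Thinning gave 2 lower effectors and 1 higher gene of prenylation. The cause of these moves was not tested. A minimum of 1.5-fold, which by construction keeps fewer genes, left 968 higher and 530 lower of all genes and 2 higher and 1 lower Rab genes. The replicate numbers share nothing in the labels and deviations of same-numbered libraries were uncorrelated (−0.0226, −0.0161 and −0.017), so they were not used as pairs; with the replicate block 13 Rab genes were higher and 2 lower, 2585 and 2497 of all genes, and 2 effectors were lower.

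In 12 uncalled Rab genes the sign turned in at least 1 alternative: with upper quartile factors Rab10 (−0.0103) and Rab11b (−0.0053), after thinning Rab1b (0.0113), Rab40c (0.0148) and Rab4b (0.0169), and without a filter Rab40c (0.0001) and Rab4b (0.0043). When 1 library was left out, log2 fold changes ran from −0.0035 to 0.0447 for Rab10, −0.1407 to 0.1802 for Rab11b, −0.1268 to 0.1235 for Rab13, −0.0056 to 0.1629 for Rab15, −0.1853 to 0.0034 for Rab17, −0.0497 to 0.0062 for Rab1b, −0.0859 to 0.0516 for Rab28, −0.1551 to 0.0666 for Rab33b, −0.0777 to 0.2834 for Rab3b, −0.053 to 0.0527 for Rab40c, −0.0566 to 0.0363 for Rab4b and −0.0771 to 0.0265 for Rab8a. Counting only the 250 bases before the start, 2 members held the decamer, 2 TCACGTGA, 3 TCACGTG and 5 CACGTG, where the whole window gave 3, 3, 4 and 6.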
